A study of Mus musculus with 3 samples.

Results

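The killer lectin receptors measured here are 10 genes, Klra3, Klra4, Klra7, Klra8, Klra9, Klrc1, Klrd1, Klre1, Klrk1 and Klrg1, of the 32285 genes in the count tables. They were chosen by name, as the Ly49 genes and the other lectin-like receptors of natural killer (NK) cells, and were read in barcodes with at least 1500 UMIs (counts of distinct RNA molecules, told apart by a random tag). NK barcodes had at least 2 UMIs of Ncr1 and Klrb1c together and none of Cd3d or Cd3e. They were split into Gzmc-high barcodes, with at least 5 UMIs of Gzmc, and Gzmc-low barcodes, with fewer, because Gzmc, a granzyme, marks a cytotoxic lymphocyte state that overlaps with type 1 innate lymphoid cells (ILC1). CD8 T barcodes had at least 2 UMIs of Cd8a and Cd8b1 together and at least 1 of Cd3e and Cd3d. Each gene's level is its share of the UMIs summed over a gate in 1 library, in CPM (the gene's UMIs scaled to the same total in every sum), with a 95% Poisson interval in brackets.

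The samples are 3 single-cell libraries of CD45+ cells from subcutaneous B16F10 melanomas of C57BL/6 mice. On day 9 after inoculation all mice received an intravenous transfer of in vitro-activated Pmel-1 CTLs, CD8 T cells whose receptor recognises gp100, and tumours were taken 3, 7 or 14 days later. Each day is 1 library that pools equal numbers of cells from 3 mice, so animals cannot be told apart, differences between days carry no replicate check, and time since transfer, age of the tumour and library effects cannot be told apart. All 3 groups carry the transfer, and mice without it were not analysed here. Intervals cover counting error only.

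NK cells weigh activating against inhibitory receptors. The Ly49 receptors, encoded by the Klra genes, read classical MHC class I. The inhibitory ones recruit phosphatases, and the activating ones signal through the adaptor DAP12. A mouse NK cell switches on only some of its Ly49 genes, so neighbouring cells carry different sets. NKG2A (Klrc1) pairs with CD94 (Klrd1) and inhibits on binding the non-classical molecule Qa-1, whereas NKG2D (Klrk1) activates on binding ligands of stressed or transformed cells, such as those of the RAE-1 and H60 families.

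The 3 libraries held 2775, 2600 and 2902 barcodes with at least 1500 UMIs at days 3, 7 and 14. Gzmc-high NK barcodes were few, 8, 33 and 20 by day, against 200, 368 and 138 Gzmc-low NK barcodes and 443, 517 and 458 CD8 T barcodes. Their median depths were 8929, 14412 and 17452 UMIs in Gzmc-high NK, 4807, 5744 and 5417 UMIs in Gzmc-low NK and 16155, 13506 and 11028 UMIs in CD8 T barcodes. The 4 melanoma genes were at 0 in both NK gates. They summed to 0.866, 0.657 and 0.863 CPM in CD8 T barcodes and 2.72, 2.68 and 3.46 CPM in myeloid barcodes, a gate defined below. The 6 NK markers summed to 4157, 6164 and 4587 CPM in Gzmc-high NK, 9672, 9669 and 8630 CPM in Gzmc-low NK and 1236, 533 and 340 CPM in CD8 T barcodes. Ncr1 and Klrb1c are among these 6 and define the NK gates, so part of that difference was set by the gates. The 7 monocyte and macrophage markers summed to 63.1, 58.7 and 269 CPM in Gzmc-high NK, against 705, 617 and 348 CPM in Gzmc-low NK, and their part in the differences between these gates was not tested. The 7 CD8 T markers summed to 2241, 784 and 237 CPM in Gzmc-high NK, with 5, 3 and 4 of them at 0, against 366, 367 and 304 CPM in Gzmc-low NK. Of these markers, Cd3d and Cd3e are at 0 in both NK gates by the rule of the gates. In Gzmc-high NK, 1 barcode held 182 of the 207 Trbc2 UMIs at day 3 and another 253 of the 412 at day 7. Libraries shared 666, 488 and 544 barcodes with another library, of which 0, 7 and 0 were in the Gzmc-high gate, 0, 1 and 1 in the Gzmc-low gate and 80, 87 and 39 in the CD8 T gate. Barcodes with genes of another lineage numbered 0, 0 and 1 in the Gzmc-high gate, 6, 8 and 4 in the Gzmc-low gate and 69, 24 and 42 in the CD8 T gate. Calls on members that were lost with the shared barcodes left out are given with that value.

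The promoters of the 5 Ly49 members are shown because these genes move together between the gates and yet differ from cell to cell. They are the RefSeq windows of GRCm38.p6 from 250 bases before to 50 bases after the start site, all on the minus strand of chromosome 6, printed 5′ to 3′: Klra3 at chr6:130337577-130337876, Klra9 at chr6:130193063-130193362, Klra7 at chr6:130233273-130233572, Klra4 at chr6:130067222-130067521 and Klra8 at chr6:130129849-130130148. Capitals mark the longest run that Klra3, Klra4, Klra8 and Klra9 share, and in Klra7 the shorter stretch of it that all 5 share.
Klra3: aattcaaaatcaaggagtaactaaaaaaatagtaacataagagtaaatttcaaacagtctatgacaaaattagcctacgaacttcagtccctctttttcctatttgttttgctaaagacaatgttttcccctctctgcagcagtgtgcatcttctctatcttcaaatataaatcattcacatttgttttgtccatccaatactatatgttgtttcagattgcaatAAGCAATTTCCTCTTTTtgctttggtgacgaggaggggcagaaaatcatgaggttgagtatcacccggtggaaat
Klra9: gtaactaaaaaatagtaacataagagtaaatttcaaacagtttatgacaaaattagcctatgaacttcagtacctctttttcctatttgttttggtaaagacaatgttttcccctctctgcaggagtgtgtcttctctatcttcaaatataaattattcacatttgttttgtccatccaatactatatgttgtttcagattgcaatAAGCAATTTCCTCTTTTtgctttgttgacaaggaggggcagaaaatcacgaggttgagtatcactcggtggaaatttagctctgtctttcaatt
Klra7: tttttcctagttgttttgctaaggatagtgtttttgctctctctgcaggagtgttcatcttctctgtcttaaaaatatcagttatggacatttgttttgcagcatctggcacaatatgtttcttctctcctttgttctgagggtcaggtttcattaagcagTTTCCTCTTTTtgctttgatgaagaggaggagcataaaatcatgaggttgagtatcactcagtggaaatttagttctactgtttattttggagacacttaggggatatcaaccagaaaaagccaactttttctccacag
Klra4: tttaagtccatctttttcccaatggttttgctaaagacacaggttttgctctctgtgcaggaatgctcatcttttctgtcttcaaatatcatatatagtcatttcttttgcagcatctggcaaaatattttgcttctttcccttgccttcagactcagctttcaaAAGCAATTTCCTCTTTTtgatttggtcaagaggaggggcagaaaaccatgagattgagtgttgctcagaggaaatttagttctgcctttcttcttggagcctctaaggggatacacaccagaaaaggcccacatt
Klra8: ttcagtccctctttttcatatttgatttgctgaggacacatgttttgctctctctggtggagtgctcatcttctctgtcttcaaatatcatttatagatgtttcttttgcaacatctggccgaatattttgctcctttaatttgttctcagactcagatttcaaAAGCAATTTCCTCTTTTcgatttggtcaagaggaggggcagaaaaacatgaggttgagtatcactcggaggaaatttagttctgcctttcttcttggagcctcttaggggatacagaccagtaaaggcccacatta
The 17-base run AAGCAATTTCCTCTTTT stood in 8 of 32851 promoters (0.0244%, either strand), those of the 7 genes Gm52487, Klra17, Klra3, Klra4, Klra6, Klra8 and Klra9, and the 11-base run TTTCCTCTTTT in 49 (0.149%). The capitals began 25 bases before the start site in Klra3, 44 in Klra9, 89 in Klra7, 85 in Klra4 and 86 in Klra8. The promoters were most alike between the activating genes Klra4 and Klra8, at 86.0% identity, and between the inhibitory genes Klra3 and Klra9, at 85.0%, whereas the other 8 pairs lay between 44.5 and 74.3%. The inhibitory gene Klra7 was nearer to Klra4 (73.7%) and Klra8 (74.3%) than to Klra3 (44.5%) and Klra9 (50.8%). The windows are placed by the start sites, from which the capitals lie at unlike distances, so identity over the whole window depends on that offset too. Of 4 short motifs searched on both strands, TGTGGT (RUNX), AGGTGT (T-box) and AGGAAG (ETS) stood in none of the 5 windows, against 16.8%, 13.7% and 35.4% of all promoters, and CTTTGA (TCF) stood in that of Klra7 only, against 16%. These matches are descriptions of the exact letters in the windows. On the other strand, the capitals that all 5 windows share hold the first 5 letters of the ETS motif searched. The lack of an exact match therefore does not show that these windows lack other forms of an ETS site.

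Likeness also bears on the counting. The last 500 bases of the transcripts, where the 3′ kit reads, were 98.2% identical between Klra3 and Klra9. Of the 90-base windows in that tail, 8.52% of those of Klra3, 14.1% of those of Klra9, 10.2% of those of Klra7 and 32.6% of those of Klrc1 occurred in another gene, for Klrc1 in Klrc2, so the levels of these 4 are less certain. The other 6 members had no such window.

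The comparison of Gzmc-high with Gzmc-low NK barcodes asks whether the Gzmc-expressing NK state carries the Ly49 repertoire. All 5 Ly49 members fell in Gzmc-high NK, by 1.02 to 1.65 on the log2 scale, and so did Klrk1, whereas Klrg1 rose and Klrc1, Klrd1 and Klre1 did not pass the test. The summed Ly49 level was 463 (336 to 622), 647 (583 to 716) and 773 (687 to 868) CPM in Gzmc-high NK at days 3, 7 and 14, against 1864 (1786 to 1944), 1998 (1941 to 2057) and 1827 (1738 to 1920.5) CPM in Gzmc-low NK. Every Gzmc-high value lay below every Gzmc-low value, and the intervals did not overlap on any day. The test was edgeR's quasi-likelihood test on UMIs summed per library and gate, with the library as a covariate and Benjamini-Hochberg adjustment over 8253 genes at a threshold of 0.05. The 6 members that fell are read against 668 genes that fell (8.09% of those tested), and the 1 that rose against 931 that rose (11.3%). Without day 7, 126 genes rose and 91 fell, and Klra4, Klra7, Klra8 and Klra9 still fell. The 3 libraries are days, so the spread in this test is how the gate difference varied between days.

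Set against CD8 T barcodes, Gzmc-low NK barcodes had higher levels of all 10 members, where 1756 of the 8253 genes rose (21.3%) and 2080 fell (25.2%). The differences of the Ly49 genes spanned log2 4.74 to 9.11, the largest being that of Klra4, and those of Klrk1, Klrd1 and Klrc1 spanned 0.63 to 1.58. The Ly49 sum in CD8 T barcodes was 18.2 (15.5 to 21.2), 27.2 (23.9 to 30.8) and 18.4 (15.5 to 21.6) CPM.

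**Figure D1:**
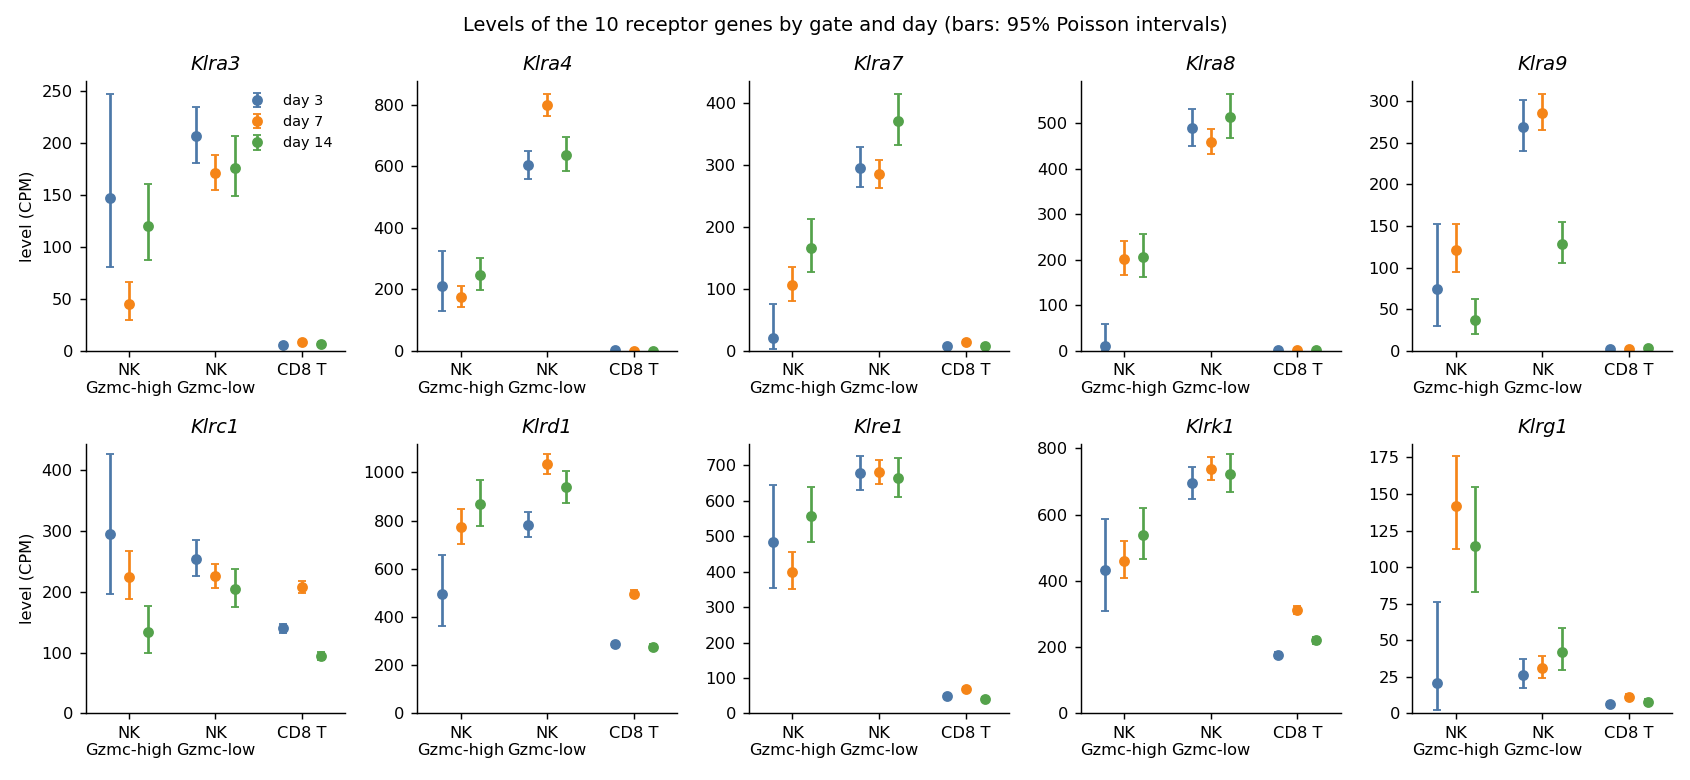
Level of each of the 10 genes in CPM (vertical axis from 0) in Gzmc-high NK, Gzmc-low NK and CD8 T barcodes, with 1 point per library (day 3, 7 or 14) and 95% Poisson intervals. The Ly49 genes stand highest in Gzmc-low NK on every day and near 0 in CD8 T, whereas Klrc1, Klrd1 and Klrk1 keep a level in all 3 gates, and Klrg1 stands highest in Gzmc-high NK at days 7 and 14.

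Among the inhibitory Ly49 genes, Klra3 encodes Ly49C. Klra3 had 147 (80.5 to 247), 44.9 (29.3 to 65.8) and 120.0 (87.5 to 161) CPM in Gzmc-high NK, against 206 (181 to 234), 171 (154 to 188) and 176 (149 to 207) CPM in Gzmc-low NK. The Gzmc-high values were lower on each day, but the intervals overlapped at days 3 and 14. It fell in the fit (log2 -1.02, SE 0.299, adjusted p = 0.0301), a call that was lost in 5 alternatives, without day 7 at log2 -0.56 and adjusted p = 0.236, and with shared barcodes left out at adjusted p = 0.103. Over its alternatives, adjusted p ran 7.58e-06 to 0.236.

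Klra9 encodes Ly49I, an inhibitory receptor of the same type. It had 73.7 (29.6 to 152), 121 (94.2 to 153) and 37.3 (20.4 to 62.6) CPM in Gzmc-high NK, against 269 (239.9 to 301), 286 (265 to 309) and 128 (105 to 154) CPM in Gzmc-low NK. The gates did not overlap on any day, and Klra9 fell in the fit (log2 -1.41, SE 0.264, adjusted p = 0.00313). The call was lost with Gzmc of 1 UMI or more (adjusted p = 0.101, in a range of 1.2e-10 to 0.101 over the alternatives). Of the 5 Ly49 members it was the one whose level in Gzmc-low NK moved past 1.5-fold between days, the size used here to name a difference between days of a gene with at least 50 UMIs in the 2 days together. Its ratio was 0.447 (95% interval 0.362 to 0.549) for day 14 over day 7 and 0.476 (95% interval 0.379 to 0.594) for day 14 over day 3. Lower ratios past that size were held by 9.79% and 10.5% of the genes measured in these 2 comparisons, and none of the other 9 receptor genes was among them. Klra9 was also found in fewer Gzmc-low barcodes at day 14, 44.5%, 46.5% and 27.5% by day, and after thinning each barcode to 3000 UMIs in 36.0%, 38.1% and 20.5%.

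Klra7 encodes Ly49G, an inhibitory receptor of NK cells and some T cells. It had 21.0 (2.55 to 76.0), 105 (80.5 to 135) and 165 (127 to 212) CPM in Gzmc-high NK, against 295 (265 to 328), 284 (263 to 307) and 371 (331 to 414) CPM in Gzmc-low NK. The day 3 value of Gzmc-high NK rests on 2 UMIs of 1 barcode. Every Gzmc-high value lay below every Gzmc-low value, and Klra7 fell in the fit (log2 -1.47, SE 0.297, adjusted p = 0.00465). In CD8 T barcodes Klra7 had 7.47 (5.81 to 9.46), 14.2 (11.9 to 16.9) and 8.26 (6.40 to 10.5) CPM, higher at day 7 than at days 3 and 14, with a day 7 over day 3 ratio of 1.91 (95% interval 1.41 to 2.59) and a day 14 over day 7 ratio of 0.580 (95% interval 0.426 to 0.785).

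Of the activating Ly49 genes, Klra4 encodes Ly49D. It had 210.5 (129 to 325), 174 (142 to 212) and 245 (198 to 301) CPM in Gzmc-high NK, against 604 (559 to 650.1), 798 (762 to 835) and 638 (585 to 694) CPM in Gzmc-low NK. The gates did not overlap on any day, and Klra4 had the largest fitted difference of the members that fell (log2 -1.65, SE 0.265, adjusted p = 0.00129). Of its 20 UMIs in Gzmc-high NK at day 3, 14 came from 1 barcode, and without that barcode the level was 67.9 CPM. In Gzmc-low NK its day 7 over day 3 ratio was 1.32 (95% interval 1.21 to 1.45), under the 1.5-fold size.

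Klra8 encodes Ly49H, the activating receptor known for recognising a cytomegalovirus protein. It had 10.5 (0.266 to 58.6), 202 (167 to 242) and 205 (162 to 257) CPM in Gzmc-high NK, against 489 (449.8 to 532), 459 (432 to 487) and 514 (467 to 565) CPM in Gzmc-low NK. The gates did not overlap, and Klra8 fell (log2 -1.52, SE 0.315, adjusted p = 0.00538) but at adjusted p = 0.0668 by DESeq2, the highest of its alternatives (1.13e-18 to 0.0668). A single UMI made up the day 3 value of Gzmc-high NK, so its ratio of day 7 over day 3 there, 19.2 (95% interval 3.38 to 764), has a wide interval.

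In Gzmc-high NK the Ly49 sum stood higher at the later days, with ratios of 1.40 (95% interval 1.02 to 1.96) for day 7 over day 3, 1.19 (95% interval 1.02 to 1.40) for day 14 over day 7 and 1.67 (95% interval 1.21 to 2.35) for day 14 over day 3. Of the 9 members measured, 5 were past 1.5-fold higher at day 7 over day 3 (Klra7, Klra8, Klra9, Klrd1 and Klrg1), where 18% of genes were, and none past it lower, where 18.9% were. Between days 14 and 7, 2 of 10 were past it higher (Klra3 and Klra7), where 6.41% of genes were, and 2 lower (Klra9 and Klrc1), where 6.69% were. Between days 14 and 3, 3 of 8 were past it higher (Klra7, Klra8 and Klrd1), where 17.2% of genes were, and 1 lower (Klrc1), where 17.5% were. Day 3 held only 8 barcodes. With Gzmc of 1 UMI or more in place of 5, the Ly49 sum had a day 14 over day 3 ratio of 0.763, in the opposite direction. With MHC class II barcodes left out the ratios were 2.74 for day 7 over day 3 and 4.09 for day 14 over day 3, and with shared barcodes left out that of day 14 over day 7 was 0.990. In Gzmc-low NK the Ly49 sum kept within 1.5-fold, with ratios of 1.07 (95% interval 1.02 to 1.13) for day 7 over day 3 and 0.915 (95% interval 0.863 to 0.969) for day 14 over day 7. Of the 10 members none was past 1.5-fold in Gzmc-low NK at day 7 over day 3, where 5.37% of genes were higher and 6.78% lower, and none was past it higher at day 14 over day 7, where 3.45% were.

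Klrc1 encodes NKG2A, the inhibitory partner of CD94. It had 295 (196 to 426), 224 (187 to 266) and 133 (99.0 to 176) CPM in Gzmc-high NK, 254 (226 to 285), 225 (206 to 245) and 204 (175 to 237) CPM in Gzmc-low NK and 139.6 (132 to 147), 207 (198 to 217) and 94.2 (87.7 to 101) CPM in CD8 T barcodes. The NK gates overlapped on every day and did not pass the test (log2 -0.14, SE 0.216, adjusted p = 0.687), whereas Gzmc-low NK stood above CD8 T (log2 0.63, SE 0.176, adjusted p = 0.0103), a call lost without day 14 (log2 0.40, adjusted p = 0.123), without the library covariate (adjusted p = 0.0914) and with shared barcodes left out (adjusted p = 0.05), over a range of 6.4e-05 to 0.123. Unlike the Ly49 genes, Klrc1 had most of its UMIs in CD8 T barcodes, 69.9%, 66.4% and 59.8% of all its UMIs by day. In CD8 T barcodes it was highest at day 7, with a day 7 over day 3 ratio of 1.48 (95% interval 1.38 to 1.6) and a day 14 over day 7 ratio of 0.455 (95% interval 0.417 to 0.495).

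Klrd1 encodes CD94, the chain that NKG2 receptors need to reach the surface. It had 495 (363 to 658), 772 (702 to 846) and 869 (778 to 969) CPM in Gzmc-high NK, 782 (732 to 835), 1036 (995 to 1078) and 938 (874 to 1006) CPM in Gzmc-low NK and 286 (275 to 297), 497 (483 to 512) and 275 (264 to 287) CPM in CD8 T barcodes. It was found in every Gzmc-high barcode and in 90%, 98.4% and 93.5% of Gzmc-low barcodes by day. The 2 NK gates were apart at days 3 and 7 and overlapped at day 14, and the fit gave log2 -0.31, SE 0.175, adjusted p = 0.243 for Gzmc-high over Gzmc-low NK. Gzmc-low NK was above CD8 T on all days (log2 1.36, SE 0.165, adjusted p = 2.33e-05).

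Klre1 encodes a receptor that pairs with the products of Klri1 and Klri2 and can inhibit or activate with the partner. It had 484 (354 to 646), 400.4 (351 to 455) and 557 (484 to 638) CPM in Gzmc-high NK, 678 (631 to 727), 681 (648 to 715) and 664 (610.0 to 721) CPM in Gzmc-low NK and 49.6 (45.2 to 54.4), 69.5 (64.2 to 75.2) and 40.3 (36.1 to 44.9) CPM in CD8 T barcodes. Its level in Gzmc-low NK was nearly even over the days, and the Gzmc-high intervals overlapped those of Gzmc-low NK at days 3 and 14. The difference between NK gates did not pass the test (log2 -0.45, SE 0.187, adjusted p = 0.11), although it did with doublets left out (adjusted p = 0.0376) and without day 14 (0.0494), over a range of 0.00329 to 0.347. The difference from CD8 T did (log2 3.62, SE 0.187, adjusted p = 1.39e-08).

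Klrk1 encodes NKG2D, which signals through the adaptor DAP10. It had 431 (309.6 to 585), 461 (407 to 519.6) and 539 (467 to 618) CPM in Gzmc-high NK, 695 (648 to 745), 738 (703 to 774) and 723 (667 to 783) CPM in Gzmc-low NK and 177 (168 to 186), 312 (301 to 324) and 221 (211 to 231) CPM in CD8 T barcodes. The 3 gates kept that same order on all days: lowest in CD8 T, then Gzmc-high NK, then Gzmc-low NK, with no overlap. Klrk1 fell in Gzmc-high NK (log2 -0.56, SE 0.162, adjusted p = 0.0281), a call lost in 6 alternatives, among them that without day 7 at adjusted p = 0.114 that without day 3 at 0.0517 and that without shared barcodes at 0.0675 (range 0.000117 to 0.191), and was higher in Gzmc-low NK than in CD8 T (log2 1.58, SE 0.148, adjusted p = 3.16e-06).

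Of the members, Klrk1 was found in the most myeloid barcodes, those with at least 5 UMIs of Lyz2 and no UMI of the gate genes Cd3d, Cd3e, Ncr1 or Klrb1c. Its level there was 91.9 (87.1 to 96.9), 65.6 (60.6 to 70.9) and 31.9 (29.2 to 34.8) CPM by day, found in 44.5%, 30.6% and 20.7% of barcodes. Each day lay below the one before, with a ratio of 0.347 (95% interval 0.313 to 0.385) for day 14 over day 3, where 7.93% of genes were past 1.5-fold lower and 8.43% higher. With Klrd1, it was 1 of 2 members measured in this gate, and both were past 1.5-fold lower at day 14 over day 7, where 6.27% of genes were lower and 6.77% higher. Neither was past it at day 7 over day 3, where 5.07% were higher and 5.1% lower. Klrd1 was found in 7%, 7.47% and 4.87% of myeloid barcodes and Klrc1 in 0.769%, 1.05% and 0.684%, at median depths of 10454, 10586 and 11842 UMIs.

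Klrg1 encodes an inhibitory receptor for cadherins that marks mature or repeatedly stimulated cells. It had 21.0 (2.55 to 76.0), 142 (113 to 176) and 115 (83.0 to 154) CPM in Gzmc-high NK, against 26.1 (17.6 to 37.3), 31.0 (24.2 to 39.0) and 42.3 (29.6 to 58.5) CPM in Gzmc-low NK. Gzmc-high NK was higher at days 7 and 14, with no overlap, and level with Gzmc-low NK at day 3, where it rests on 2 UMIs. Klrg1 rose in the fit (log2 1.79, SE 0.292, adjusted p = 0.00143), higher in 2 of 3 libraries. A few barcodes hold much of this signal: 1 barcode had 23 of the 82 UMIs at day 7 and another 22 of the 43 at day 14, and without these the levels were 108 and 62.8 CPM. The call was lost without day 7 (log2 1.25, adjusted p = 0.118) and on thinned counts (log2 1.31, adjusted p = 0.216), over a range of 2.59e-10 to 0.216. In Gzmc-low NK, Klrg1 was past 1.5-fold higher for day 14 over day 3, at 1.62 (95% interval 0.969 to 2.72), where 3.18% of genes were, but its interval includes 1.

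**Figure D2:**
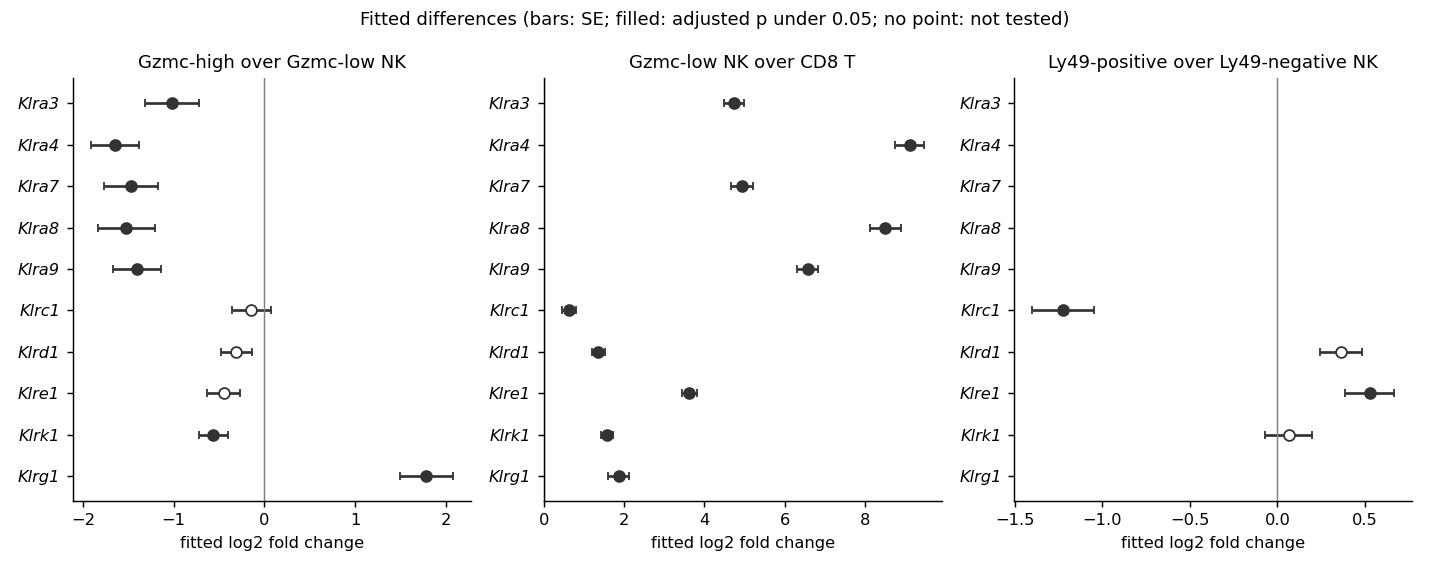
Fitted log2 difference with its standard error (horizontal axis) of each of the 10 genes in the 3 tested comparisons, Gzmc-high over Gzmc-low NK, Gzmc-low NK over CD8 T, and Ly49-positive over Ly49-negative NK, with filled points for adjusted p under 0.05. The 5 Ly49 genes lie between -1.65 and -1.02 in the first and between 4.74 and 9.11 in the second, and Klrc1 at -1.22 stands apart in the third.

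Levels averaged over a gate hide how the receptors were spread over barcodes. At 3000 UMIs per barcode, Klra4 was found in 41.0%, 48.7% and 44.1% of Gzmc-low NK barcodes by day, where a Poisson spread of the same mean would give 86.2%, 92.5% and 86.8%. Klra8 was found in 50%, 48.2% and 44.1%, against 80.9%, 74.7% and 79.8% for an even spread, and Klra9 in 36.0%, 38.1% and 20.5%, against 59.98%, 63.0% and 34.6%. All 5 Ly49 genes and Klrc1 were found in fewer barcodes than an even spread would give, on all 3 days. Klra3 reached 30.9%, 27.7% and 25.2%, against 47.3%, 42.6% and 45.0%, and Klra7 47.2%, 40.9% and 41.7%, against 60.6%, 59.5% and 71.4%. Klre1 was close to even, with 89.3%, 86.3% and 81.9%, against 88.1%, 89.4% and 87.3%. Klrk1 had 86.0%, 87.7% and 81.9%, against 90.1%, 89.6% and 89.9%, nearer to even than the Ly49 genes but under it on all 3 days. Klrd1 also lay under an even spread on all 3 days, by less than the Ly49 genes. A deficit was therefore not particular to the Ly49 genes and Klrc1. The Ly49 genes were thus each held by some of the barcodes at several UMIs, and Klre1 and Klrk1 by most of them.

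**Figure D3:**
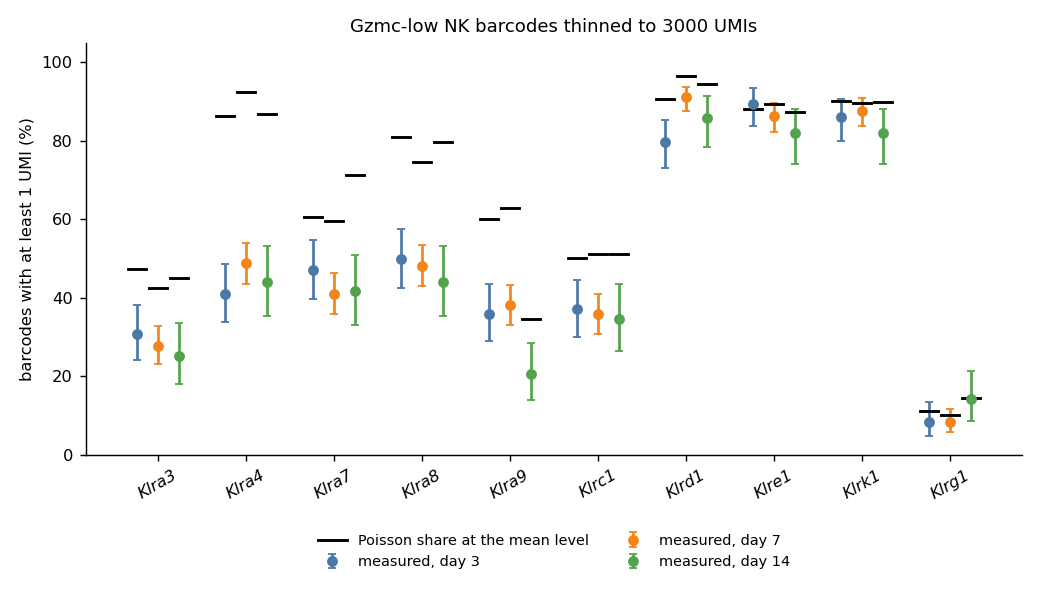
Percentage of Gzmc-low NK barcodes with at least 1 UMI of each gene after thinning to 3000 UMIs (vertical axis from 0), by day, with 95% Clopper-Pearson intervals; black lines mark the share that an even, Poisson spread of the same mean would give. The 5 Ly49 genes and Klrc1 lie under their black lines on every day, with the gap widest for Klra4. Klrd1 and Klrk1 also lie under theirs on every day, by less, and Klre1 lies near its own.

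Counting receptors per barcode, Gzmc-high NK carried a mean of 0.625, 1.09 and 1.21 Ly49 members of 5 by day, against 2.05, 2.04 and 1.76 in Gzmc-low NK, both at 3000 UMIs per barcode. At least 1 Ly49 member was found in 62.5%, 57.6% and 52.6% of Gzmc-high NK barcodes, 86.5%, 87.4% and 80.3% of Gzmc-low NK barcodes and 4.55%, 5.98% and 6.15% of CD8 T barcodes. Without thinning these shares were 75%, 63.6% and 50% in Gzmc-high NK, 89.5%, 92.4% and 84.1% in Gzmc-low NK and 9.48%, 12% and 11.1% in CD8 T barcodes, against 2.85%, 3.38% and 2.05% in myeloid barcodes, taken here as the background of free RNA. Thinned, the myeloid shares were 1.02%, 0.859% and 0.175%. Gzmc-high NK lay below Gzmc-low NK on each day, thinned or not, although its barcodes were deeper. The thinned Gzmc-high shares rest on 8, 33 and 19 barcodes of at least 3000 UMIs.

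**Figure D4:**
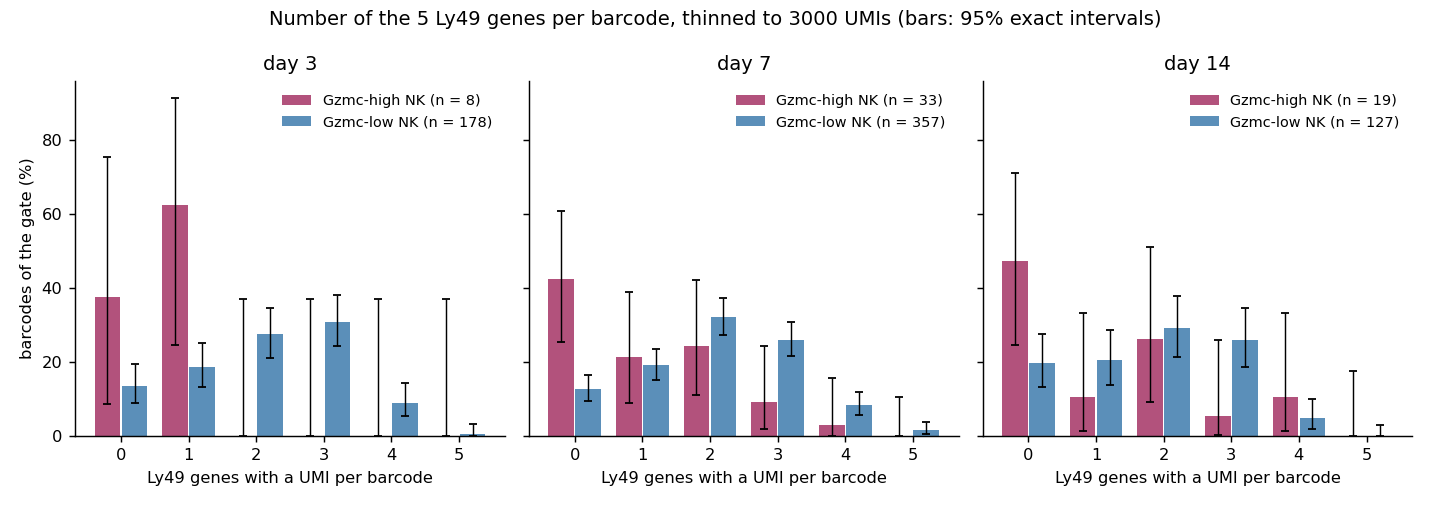
Percentage of barcodes (vertical axis from 0) by the number of Ly49 members found, 0 to 5, at 3000 UMIs per barcode, in Gzmc-high NK (8, 33 and 19 barcodes) and Gzmc-low NK (178, 357 and 127 barcodes) at days 3, 7 and 14. Barcodes with none make up 37.5%, 42.4% and 47.4% of Gzmc-high NK and 13.5%, 12.6% and 19.7% of Gzmc-low NK.

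Both kinds of Ly49 were often found in 1 Gzmc-low NK barcode. An inhibitory with an activating member was found in 57.3%, 57.1% and 46.5% of them by day, inhibitory members alone in 20.2%, 19.6% and 19.7% and activating members alone in 8.99%, 10.6% and 14.2%. In Gzmc-high NK the combination of both was found in 0%, 30.3% and 36.8% of barcodes, and without thinning in 25%, 48.5% and 45%. A count of 0 of 8 barcodes, as at day 3 after thinning, allows a share of up to 37.5% by the limit of 3 counts. Barcodes with neither a Ly49 member nor Klrc1 made up 12.5%, 27.3% and 21.1% of Gzmc-high NK, against 5.06%, 3.64% and 10.2% of Gzmc-low NK. Without thinning the shares were 0%, 3.03% and 15% of Gzmc-high NK, against 3.50%, 0.815% and 5.07% of Gzmc-low NK, so the direction at day 3, over 8 Gzmc-high barcodes, turned with the depth. In C57BL/6 mice Ly49C, Ly49I and NKG2A are the inhibitory receptors known to read self MHC class I. None of Klra3, Klra9 and Klrc1 was found in 28.1%, 24.9% and 37.8% of Gzmc-low NK barcodes, and an activating member without these 3 in 21.3%, 18.8% and 24.4%. A receptor that was not found may still be expressed below 1 UMI at this depth.

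The genes around the receptors moved with the gates. Of 18 genes of NK maturation and effector function measured, 9 fell in Gzmc-high NK and 1 rose, with a median of log2 -1.15 beside -0.03 over all genes. S1pr5 and S1pr1, receptors that let lymphocytes leave tissues, were among them: S1pr5 had no UMI in Gzmc-high NK on any day, where 3 counts stand for 31.6, 5.18 and 8.0 CPM, against 13.9, 9.47 and 17.6 CPM in Gzmc-low NK. S1pr1 had 10.5, 1.73 and 0 CPM in Gzmc-high NK, against 25.2, 20.2 and 9.40 CPM in Gzmc-low NK (adjusted p = 0.0243). Klf2, the transcription factor that drives S1pr1, fell (log2 -3.24, SE 0.269, adjusted p = 2.99e-05), and so did Cma1, a chymase known from mast cells, with 0, 1.73 and 0 CPM in Gzmc-high NK, against 50.5, 38.7 and 56.4 CPM in Gzmc-low NK (adjusted p = 0.000459). Gzmb, a granzyme, was the one that rose (log2 0.83, SE 0.178, adjusted p = 0.00675).

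Of 16 genes of immature NK cells and ILC1, 6 rose and 5 fell in Gzmc-high NK, with a median of log2 0.20. The falls were those of Cd7 (log2 -1.21), Cd27 (log2 -1.17), Tcf7 (log2 -0.89), Ctla2a (log2 -0.74) and Emb (log2 -0.64). Itga1 (log2 -0.16, adjusted p = 0.857) and Il7r (log2 0.17, adjusted p = 0.828) did not pass the test. Cxcr6, a chemokine receptor of tissue-resident lymphocytes, rose (log2 2.75, SE 0.489, adjusted p = 0.0023), and so did Inpp4b, a lipid phosphatase (log2 2.46, SE 0.355, adjusted p = 0.000673), Tmem176a (log2 2.10, SE 0.410, adjusted p = 0.00395) and Tmem176b (log2 1.93, SE 0.282, adjusted p = 0.000691). Among 14 adaptors and signalling genes, 4 fell and none rose, with a median of -0.44: Hcst, which encodes DAP10, the partner of NKG2D (log2 -1.08, SE 0.178, adjusted p = 0.00151), Inpp5d (log2 -1.06, SE 0.205, adjusted p = 0.00364), Cd247 (log2 -0.99, SE 0.211, adjusted p = 0.00655) and Sh2d1a (log2 -0.58, SE 0.166, adjusted p = 0.0284). Tyrobp, which encodes DAP12, had 1431, 1871 and 1544 CPM in Gzmc-high NK, against 2194, 2496 and 2261 CPM in Gzmc-low NK (log2 -0.44, SE 0.249, adjusted p = 0.237). Of 8 other lectin receptor genes, Klrc2, the activating NKG2C (log2 -1.31, SE 0.392, adjusted p = 0.0329), and Klrb1a, an NKR-P1 receptor (log2 -1.15, SE 0.291, adjusted p = 0.0152), fell. Of 2 further Ly49 genes measured, neither passed the test, Klra1 being the nearer (log2 -1.34, SE 0.513, adjusted p = 0.0839).

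The largest rises in Gzmc-high NK among genes with at least 100 UMIs were those of the granzymes Gzmd (log2 9.90, SE 1.71, adjusted p = 0.00195) and Gzme, the chemokine Ccl1 (log2 7.40, SE 1.06, adjusted p = 0.000669), the DNA synthesis genes Rrm2 (log2 4.34, SE 0.515, adjusted p = 0.000189) and Tk1 (log2 4.34, SE 0.518, adjusted p = 0.0002), and Ccdc184 (log2 4.27, SE 0.253, adjusted p = 2.31e-06). Gzmd had 0, 2099 and 10.7 CPM in Gzmc-high NK, against 0, 1.72 and 0 CPM in Gzmc-low NK, so nearly all of it lies at day 7. Gzme had 0, 692 and 10.7 CPM in Gzmc-high NK, against 0, 0.860 and 0 CPM in Gzmc-low NK (adjusted p = 0.00171). The largest falls were those of Cma1, Abcg1, Il1rn, Inhba, Ptgs2 and Hspa1b. Abcg1, a cholesterol transporter, had 0, 1.73 and 0 CPM in Gzmc-high NK, against 34.0, 27.1 and 31.7 CPM in Gzmc-low NK (adjusted p = 0.000778). Il1rn, the interleukin-1 receptor antagonist, had 10.5, 0 and 0 CPM in Gzmc-high NK, against 68.8, 7.75 and 23.5 CPM in Gzmc-low NK (adjusted p = 0.0133). Inhba, an activin subunit, had 10.5, 0 and 2.67 CPM in Gzmc-high NK, against 25.2, 21.5 and 66.9 CPM in Gzmc-low NK (adjusted p = 0.000854), and Ptgs2, a prostaglandin synthase, 0, 3.45 and 2.67 CPM in Gzmc-high NK, against 69.7, 34.4 and 51.7 CPM in Gzmc-low NK (adjusted p = 0.00453). Hspa1b, a heat shock gene, had 0, 3.45 and 8 CPM in Gzmc-high NK, against 2.61, 82.2 and 101 CPM in Gzmc-low NK (adjusted p = 0.0303). With so few UMIs in Gzmc-high NK, no fold is given for these. Gzmc-low NK held more RNA of the monocyte and macrophage markers on each day, and the part of such RNA in these falls was not tested.

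Against CD8 T barcodes, Gzmc-low NK had more of 7 of the 8 other lectin receptors, none lower, with a median of log2 3.59 beside -0.01 over all genes. The counts of each list are read beside the 21.3% of all genes tested that rose and the 25.2% that fell. Klrb1a (log2 8.35, SE 0.326, adjusted p = 2.25e-09) and Klri2, a partner of Klre1 (log2 5.04, SE 0.245, adjusted p = 9.76e-09), were among them. Of 14 adaptors, 8 rose and 3 fell, among the rises Sh2d1b1 (log2 5.47, SE 0.353, adjusted p = 1.04e-07), Tyrobp (log2 3.94, SE 0.273, adjusted p = 2.09e-07), Fcer1g (log2 3.26, SE 0.282, adjusted p = 1.53e-06) and Syk (log2 2.21, SE 0.289, adjusted p = 4.32e-05). Of 18 maturation genes 12 rose and 2 fell, and of 16 immature NK and ILC1 genes 7 rose and 6 fell, with Cxcr6 lower in Gzmc-low NK (log2 -4.97, SE 0.322, adjusted p = 1.07e-07). Klra1 was the further Ly49 gene that rose (log2 4.03, SE 0.373, adjusted p = 2.81e-06).

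Within CD8 T barcodes the killer lectin receptors ranged from common to rare. At days 3, 7 and 14, Klrd1 was found in 79.2%, 90.1% and 77.7% of CD8 T barcodes, Klrk1 in 66.8%, 74.1% and 66.4% and Klrc1 in 56.9%, 73.3% and 54.8%. Klrg1 was found in 7.22%, 7.74% and 6.99%, and its level was 6.17 (4.68 to 8.0), 11 (8.91 to 13.3) and 7.89 (6.08 to 10.1) CPM. Klre1 lay between Klrc1 and Klrg1 in the share of barcodes, and its level was 49.6, 69.5 and 40.3 CPM. Of 7 members measured between days 7 and 3, 5 were past 1.5-fold higher at day 7 (Klra3, Klra7, Klrd1, Klrk1 and Klrg1), where 6.39% of genes were, and none lower, where 11.9% were. Between days 14 and 7, 4 of 7 were past it lower (Klra7, Klrc1, Klrd1 and Klre1), where 4.5% of genes were, and none higher, where 5.68% were. None of the 7 was past 1.5-fold between days 14 and 3, where 4.48% of genes were higher and 7.67% lower. Day 7 was thus the highest day for these genes, with ratios of 1.74 (95% interval 1.66 to 1.82) for Klrd1 and 1.77 (95% interval 1.66 to 1.88) for Klrk1 for day 7 over day 3. The NK markers Ncr1, with 0.650, 1.31 and 0.370 CPM, and Klrb1c, with 2.82, 4.6 and 1.36 CPM, were also highest at day 7 in this gate. The sum of the 6 NK markers was 1236, 533 and 340 CPM, most of it from Prf1 and Gzma, which CD8 T cells make too, and that of monocyte and macrophage markers 1144, 268 and 988 CPM. The part of NK RNA in the order of the days was not tested.

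The Ly49 UMIs of CD8 T barcodes were held by few. Barcodes with at least 3 Ly49 UMIs numbered 21, 26 and 19 and held 83.3%, 81.0% and 73.2% of the Ly49 UMIs of the gate. Of these barcodes 8, 8 and 1 also held a UMI of Ncr1 or Klrb1c, as did 3.84%, 6.38% and 2.84% of all CD8 T barcodes, and whether they were doublets of a T and an NK cell was not tested.

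Trbv14 is the beta segment of the Pmel-1 receptor, though other T cells use it too. CD8 T barcodes with Trbv14 numbered 79, 155 and 136 and had 215, 354 and 231 CPM of Klrk1 by day, found in 77.2, 94.2 and 91.2% of barcodes. These shares are unthinned, at median depths of 26176, 19389 and 25920 UMIs, against 16155, 13506 and 11028 UMIs in the whole gate. They therefore cannot be set against the shares of the whole gate. In barcodes with Trbv14, Klrd1 had 235, 515 and 238 CPM and Klrc1 169.6, 202 and 94.0 CPM. All 3 were highest at day 7, as in the whole gate. Their Ly49 sum was 19.6, 16 and 7.59 CPM. CD8 T barcodes with another Trbv segment and no Trbv14 were 34, 39 and 22, too few for most members, and the segment was not read in 330, 323 and 300.

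Which receptors shared a barcode was read at 3000 UMIs. In Gzmc-low NK, Klrc1 was found in 16.4%, 17.8% and 17.9% of barcodes with Klra4 and in 51.4%, 53.0% and 47.9% of those without, and the intervals were apart on all 3 days. It was found in 23.6%, 23.3% and 23.2% of barcodes with Klra8 and in 50.6%, 47.6% and 43.7% of those without, apart on 2 of 3 days. These are the activating genes, and barcodes with either of them held Klrc1 less often on each day. For the inhibitory gene Klra7, Klrc1 was found in 23.8%, 29.5% and 30.2% of barcodes with Klra7 and in 48.9%, 40.3% and 37.8% of those without, apart on 1 day. For Klra3 the shares were 41.8%, 27.3% and 25% of barcodes with Klra3, and 35.0%, 39.1% and 37.9% of those without, and for Klra9 37.5%, 30.9% and 34.6% of barcodes with Klra9, and 36.8%, 38.9% and 34.7% of those without, with overlapping intervals on all days. The barcodes of 1 library are no replicates, so no test was made.

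**Figure D5:**
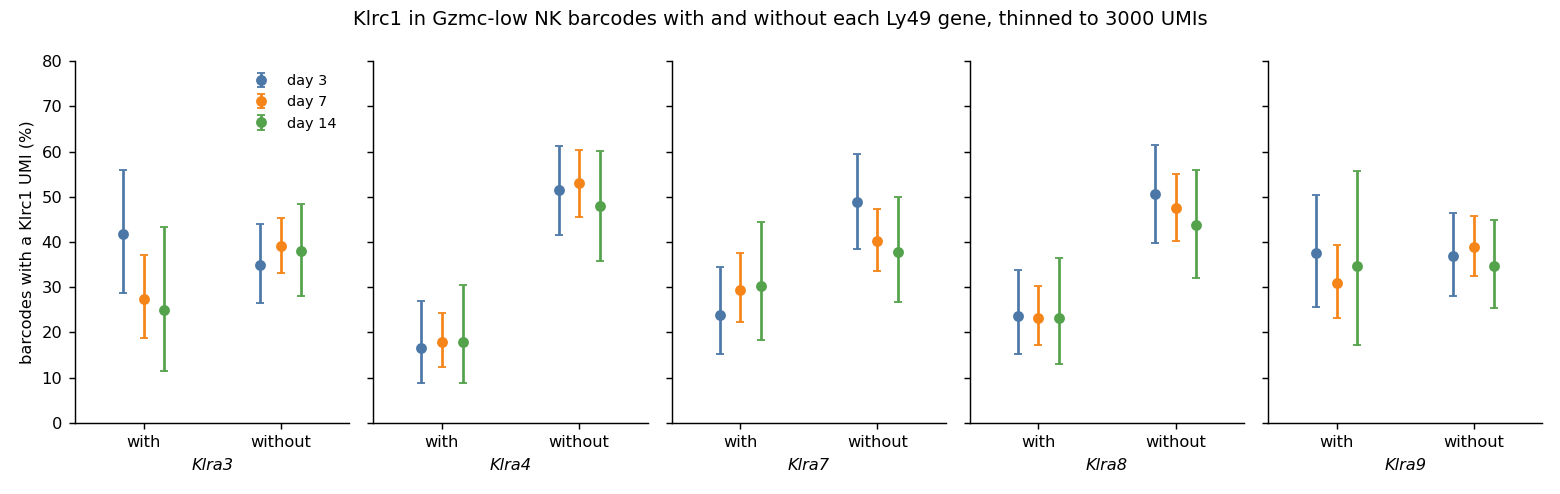
Percentage of Gzmc-low NK barcodes with at least 1 Klrc1 UMI at 3000 UMIs per barcode (vertical axis from 0), among barcodes with and without each Ly49 gene, by day, with 95% Clopper-Pearson intervals. With Klra4 the shares are 16.4%, 17.8% and 17.9% and without it 51.4%, 53.0% and 47.9%, whereas with and without Klra3 or Klra9 they overlap.

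Among the Ly49 genes, the activating pair was found together. Klra8 was found in 60.3%, 59.8% and 62.5% of barcodes with Klra4 and in 42.9%, 37.2% and 29.6% of those without, and Klra7 in 64.4%, 49.4% and 44.6% of barcodes with Klra4 and in 35.2%, 32.8% and 39.4% of those without. Of the 10 pairs, 4 (Klra4 with Klra7, Klra4 with Klra8, Klra7 with Klra8, and Klra8 with Klra9) had the second gene more often in barcodes with the first than in those without it in all 3 libraries, and 1 (Klra3 with Klra7) less often in all 3. The intervals were apart in 2 of 3 libraries for Klra4 with Klra7 and for Klra4 with Klra8. They overlapped in all 3 for Klra7 with Klra8, Klra8 with Klra9 and Klra3 with Klra7. These counts of direction were not tested. In CD8 T barcodes, Klrk1 was found in 55.6%, 63.0% and 54.6% of barcodes with Klrc1 and in 31.0%, 45.4% and 34.7% of those without, and in 48.8%, 57.6% and 47.1% of barcodes with Klrd1 and in 26.9%, 42.4% and 32.8% of those without, apart on all 3 days in both.

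Gzmc-low NK barcodes with and without any Ly49 member were then compared across all genes. Ly49-negative means that none of the Ly49 members was found at 3000 UMIs per barcode, and other Ly49 genes had no part in the definition. Unthinned, only 21, 28 and 22 of all Gzmc-low NK barcodes by day held no Ly49 member. Some Ly49-negative barcodes of each day therefore held Ly49 UMIs that thinning removed. The classes held 154, 312 and 102 Ly49-positive and 24, 45 and 25 Ly49-negative barcodes, all thinned to 3000 UMIs, in edgeR's quasi-likelihood test of 6 sums. Klrc1 fell in Ly49-positive NK (log2 -1.22, SE 0.177, adjusted p = 2.09e-05), with 203, 192 and 206 CPM in Ly49-positive NK, against 417, 556 and 373 CPM in Ly49-negative NK. The Ly49-negative value was higher on each day, and every one lay above every Ly49-positive value. Of 3148 genes tested 72 fell (2.29%) and 20 rose (0.635%). Without day 7 Klrc1 was at log2 -0.93 with adjusted p = 0.0838, over a range of 2.48e-12 to 0.0838. This comparison reads the same barcodes as the co-detection above and is not independent of it. Of the other members, Klre1 rose (log2 0.53, SE 0.141, adjusted p = 0.033), a call lost in 8 alternatives (range 9.61e-05 to 0.823), whereas Klrd1 (log2 0.36, SE 0.121, adjusted p = 0.15) and Klrk1 (log2 0.06, SE 0.133, adjusted p = 0.956) did not pass the test. Klrg1 had too few UMIs to be tested. Klra1, a Ly49 gene outside the members, was also present in Ly49-negative NK at days 3 and 7. It had 173, 89.7 and 144 CPM in Ly49-positive NK by day, against 125, 81.5 and 0 CPM in Ly49-negative NK. The difference did not pass the test (log2 0.82, SE 0.386, adjusted p = 0.447). With MHC class II barcodes left out, 4 genes rose and 18 fell.

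The Ly49-negative class carried more myeloid RNA, much of it in single barcodes. Lyz2, a lysozyme of myeloid cells, had 110.4, 160.3 and 75.2 CPM in Ly49-positive NK, against 639, 956 and 333 CPM in Ly49-negative NK (log2 -2.49, SE 0.168, adjusted p = 1.38e-11). In Ly49-negative NK, 1 barcode held 23 of its 46 UMIs at day 3, 94 of 129 at day 7 and 13 of 25 at day 14. Lyz2 was found in 20.8%, 13.5% and 16.7% of Ly49-positive barcodes by day, against 25%, 17.8% and 36% of Ly49-negative barcodes. For Cd74, 1 barcode held 41 of 71, 24 of 56 and 23 of 48 UMIs in Ly49-negative NK by day. Cxcl2 (log2 -4.14, SE 0.242, adjusted p = 5.6e-13), Il1b (log2 -3.45, SE 0.284, adjusted p = 5.81e-10), Cd74 (log2 -3.40, SE 0.194, adjusted p = 5.6e-13), H2-Aa (log2 -3.06, SE 0.308, adjusted p = 3.82e-08) and H2-Ab1 (log2 -2.82, SE 0.312, adjusted p = 2.03e-07), genes of inflammatory or antigen-presenting cells, also fell in Ly49-positive NK. With doublets left out, barcodes that held genes of another lineage, Klrc1 was at log2 -1.45, adjusted p = 2.48e-12, and with MHC class II barcodes left out at log2 -1.30, adjusted p = 2.49e-06, so its fall is as large without them. Without MHC class II barcodes, Lyz2 had 106, 125 and 53.8 CPM in Ly49-positive NK, against 17.5, 740 and 52.6 CPM in Ly49-negative NK (log2 -1.78, adjusted p = 0.000124). Cd74 lost its call there (log2 -0.90, adjusted p = 0.632) but kept it with doublets left out (log2 -1.70, adjusted p = 5.49e-07).

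Of 14 maturation and effector genes measured 5 rose in Ly49-positive NK (Gzma, Prf1, Irf8, Eomes and Gzmb) and 1 fell, with a median of log2 0.60 beside 0.00 over all genes. Gzma, a granzyme, had 8164, 8259.6 and 8046 CPM in Ly49-positive NK, against 4028, 3578 and 2307 CPM in Ly49-negative NK (log2 1.32, SE 0.0958, adjusted p = 4.69e-11). Every Ly49-positive value lay above every Ly49-negative one. Prf1, the pore-forming perforin, rose (log2 1.13, SE 0.136, adjusted p = 9.86e-07), as did Eomes, the transcription factor of mature NK cells (log2 1.05, SE 0.227, adjusted p = 0.00416), Irf8, another transcription factor (log2 0.58, SE 0.107, adjusted p = 0.000728), and Gzmb (log2 0.62, SE 0.170, adjusted p = 0.0356). The chemokine Ccl5, which is not in that list, rose too (log2 0.99, SE 0.0701, adjusted p = 3.03e-11). With MHC class II barcodes left out, Gzma was at log2 0.99, adjusted p = 1.5e-09, Prf1 at log2 0.97, adjusted p = 9.54e-06 and Ccl5 at log2 0.80, adjusted p = 9.56e-09, but the calls on Eomes (log2 0.73, adjusted p = 0.21), Irf8 (log2 0.38, adjusted p = 0.148) and Gzmb (log2 0.38, adjusted p = 0.374) were lost. That on Irf8 was also lost with doublets left out (log2 0.34, adjusted p = 0.216). Khdc1a (log2 2.64, SE 0.554, adjusted p = 0.00305) and the long non-coding RNA Mirt1 (log2 1.05, SE 0.287, adjusted p = 0.0378) also rose, and both calls were lost with doublets left out (log2 1.32, adjusted p = 0.159 for Khdc1a, log2 0.42, adjusted p = 0.814 for Mirt1).

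Genes of immature NK cells and ILC1 went the other way, with 5 of 9 measured lower in Ly49-positive NK and none higher, and a median of log2 -0.69. Tmem176b (log2 -5.04, SE 0.698, adjusted p = 1.03e-05), the cytokine gene Ltb (log2 -0.98, SE 0.192, adjusted p = 0.00134) and Emb, which encodes an adhesion protein (log2 -0.89, SE 0.138, adjusted p = 5.27e-05), were among them. Tmem176a had 2.16, 0 and 0 CPM in Ly49-positive NK, against 83.3, 126 and 120 CPM in Ly49-negative NK (adjusted p = 2.12e-06). With MHC class II barcodes left out, Ltb was at log2 -0.95, adjusted p = 0.00694 and Emb at log2 -0.96, adjusted p = 9.54e-06. Of 7 other lectin receptors, the inhibitory Klrb1b fell (log2 -1.48, SE 0.195, adjusted p = 4.82e-06), and Ly6c2 was the maturation gene that fell (log2 -1.54, SE 0.214, adjusted p = 1.09e-05). Of 12 adaptor genes only Sh2d1a rose (log2 0.88, SE 0.237, adjusted p = 0.0326), a call lost with doublets left out (log2 0.72, adjusted p = 0.204) and with MHC class II barcodes left out (log2 0.03, adjusted p = 0.994).

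The ligands of these receptors were read over all barcodes with at least 1500 UMIs. H2-K1, a classical MHC class I gene read by Ly49 receptors, had 2305, 2652 and 2036 CPM by day, and H2-D1 1888, 1773 and 1310.2 CPM. H2-T23, which encodes Qa-1, the ligand of NKG2A, had 226, 171 and 125 CPM. All 3 were lowest at day 14. Cdh1, which encodes E-cadherin, the ligand of KLRG1, had 4.16, 6.20 and 8.11 CPM, and Ulbp1, a ligand of NKG2D, 5.31, 6.64 and 3.89 CPM. Of 5 ligand genes measured, H2-K1 and H2-D1 fell in Gzmc-high over Gzmc-low NK (log2 -0.39, SE 0.0976, adjusted p = 0.0146 for H2-K1). Against CD8 T, Gzmc-low NK had 3 higher and 1 lower, Ulbp1 (log2 -1.27, SE 0.338, adjusted p = 0.00761). CD45+ cells were taken, so the ligands on tumour cells were not read.

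Over the 9 sums of 3 gates and 3 libraries, the genes whose CPM ranked most like the Ly49 sum, among 9727 genes with at least 100 UMIs, were Klrb1a and Klri2 (Spearman rho 1 for both), then Fosl2, Ppp1r37 and Agtrap (rho 0.983 each). In all, 9 genes were at or above 0.983. The sums share libraries and the gates set much of the order, so this is a description.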

How the data were processed

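Viable CD45+ cells were run on the 10x Chromium 3′ kit, version 3.1, per the labels, which differ on whether a sorter or magnetic beads took them. Raw UMI counts were deposited for each gene and barcode. Per the submitters' processing notes, the authors used Cell Ranger 4.0.0 with mm10. The release of the gene annotation is not given in the sources used here. Tables hold 3656, 3038 and 3549 barcodes with 33096709, 29547433 and 35742070 UMIs.

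UMIs were summed per gate and library. CPM have exact Poisson, shares exact Clopper-Pearson and ratios exact conditional intervals (95%), for counting error only, since cells are no replicates. An undetected gene was given a floor of 3 counts. Barcodes were thinned without replacement to 1500 or 3000 UMIs, leaving out shallower ones: at 3000 UMIs this removed 0, 0 and 1 Gzmc-high NK, 22, 11 and 11 Gzmc-low NK and 25, 15 and 19 CD8 T barcodes. Doublets were kept in the main values: an alternative left out barcodes with at least 5 UMIs of myeloid or 2 of B cell markers, and another those with at least 2 of H2-Aa and H2-Ab1. Tests used edgeR 4.0.16 (TMM, filterByExpr, quasi-likelihood, library as a term) on 9 sums, and on 6 thinned sums for Ly49-positive over Ly49-negative NK, with genes that define gates or classes removed before adjustment. The fits had 4 and 2 residual degrees of freedom. DESeq2 1.42.0 was an alternative. The edgeR fits were tested on simulated counts: of genes changed 4-fold, 93% were recovered for Gzmc-high over Gzmc-low NK, 100% for Gzmc-low NK over CD8 T and 80% for Ly49-positive over Ly49-negative NK, and of 2-fold changes 64%, 96% and 43%. Changes were put only into genes with higher fitted counts, so these shares do not cover sparse genes. All 10 members are named, and, of each gene list, up to 4 called genes with the largest change, with the 6 highest and 6 lowest called genes of at least 100 UMIs in both NK comparisons and 5 genes by likeness. For Gzmc-high NK, the immature NK and ILC1 genes that fell are named too, with Itga1 and Il7r. The members and lists were chosen with earlier results of these data known. Promoters are RefSeq's (GRCm38.p6), with 8 of 10 members matched; Klrd1 and Klrg1 had none. Transcripts are those of GENCODE M21. Python 3.11.15 and R 4.3.3 were used.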

Additional observations from a re-analysis of the deposited data

Results flagged for a closer look

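Klra7, which encodes Ly49G, moved in opposite directions after day 7. Its ratio of day 14 over day 7 was 1.57 (95% interval 1.08 to 2.27) in Gzmc-high NK barcodes and 0.580 (95% interval 0.426 to 0.785) in CD8 T barcodes. The difference between the 2 gates was not tested, since each day is 1 library, and 18 of the 62 UMIs of Gzmc-high NK at day 14 came from 1 barcode.

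Barcodes under 1500 UMIs, which enter no gate, also held Ly49 RNA. The 5 Ly49 members summed to 168, 71 and 55 UMIs in 881, 438 and 647 such barcodes at days 3, 7 and 14, or 246, 202 and 114 CPM, with at least 1 UMI in 7.15%, 6.85% and 4.33% of them. Of these barcodes 528, 308 and 457 were shared with another library, and they held 30, 10 and 16 of the UMIs.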

How the results depend on the processing

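Over the 10 members, 128 of 150 alternative values of the Gzmc-high over Gzmc-low NK fit kept their direction and side of the threshold, 127 of 130 of the Gzmc-low NK over CD8 T fit and 40 of 52 of the Ly49-positive over Ly49-negative NK fit. Klra4 and Klra7 kept their fall in Gzmc-high NK in all of them. Klra9 lost it with Gzmc of 1 UMI or more (adjusted p = 0.101) and Klra8 by DESeq2. Some values changed direction. The Ly49 day 14 over day 3 ratio of Gzmc-high NK was 0.763 with that Gzmc cut, and its day 14 over day 7 ratio turned with shared barcodes left out. Klrc1 between the NK gates turned to 0.044 without day 14, 0.24 thinned to 1500 UMIs and 0.15 with that Gzmc cut, but kept its sign without day 7 (-0.26). Klrk1 in Ly49-positive NK turned to -0.047 without day 3 and -0.0026 with doublets left out, but kept its sign without day 14 (0.19). No fitted value among these passed the test. In Gzmc-low NK the Ly49 day 7 over day 3 ratio was 0.989 with doublets left out, 0.997 with MHC class II barcodes left out and 1 as a mean over barcodes. Its day 14 over day 7 ratio was 0.977 with MHC class II barcodes left out, and its day 14 over day 3 ratio 1.05 outside mitochondrial and ribosomal genes. The share with a Ly49 member was 82.5, 81.0 and 75.4% at 1500 UMIs, and 87.4% at 3000 UMIs at day 7. Unthinned, Klrc1 with minus without Klra8 was -35.8 and -37.0 percentage points at days 7 and 14.

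Leaving out MHC class II barcodes, or the shallower copies of shared ones, was chosen after seeing the data. Counts of called genes moved too. For Gzmc-high over Gzmc-low NK, 77 rose and 124 fell at 1500 UMIs, 491 and 386 with MHC class II barcodes left out, 579 rose with only these gates fitted, 425 fell with no library block and 300 with Gzmc of 1 UMI or more; leaving out 1 day gave 126 to 843 rises and 91 to 640 falls, lowest without day 7. For Gzmc-low NK over CD8 T, 710 rose and 717 fell at 1500 UMIs, and leaving out 1 day gave 1330 to 1866 falls. For Ly49-positive over Ly49-negative NK, 53 rose with no filter, 4 with no library block, 10 and 29 rose and fell with doublets left out, 4 and 18 with MHC class II barcodes left out, 4 and 10 at 1500 UMIs, 6 and 42 by DESeq2, 154 fell unthinned, and leaving out 1 day gave 10 to 26 rises. The cause was not tested. Gates of the same library were paired in each fit by the library block, whereas the days, with 1 library each, share no replicate numbers that could pair them. Depth limits Gzmc-high NK at day 3 most, where 8 barcodes hold 95030 UMIs and 3 counts stand for 31.6 CPM.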

Other observations

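Other Ly49 and lectin receptor genes had values of their own. Klra2, a Ly49 gene of myeloid cells, had 167, 163 and 113 CPM in myeloid barcodes at days 3, 7 and 14. Klra1, which encodes Ly49A, had 0, 38.0 and 58.7 CPM in Gzmc-high NK, 132, 81.3 and 98.7 CPM in Gzmc-low NK and 2.82, 3.83 and 14.4 CPM in CD8 T barcodes, and Klrc2, which encodes NKG2C, had 0, 77.7 and 98.7 CPM in Gzmc-high NK, 168, 199.7 and 171 CPM in Gzmc-low NK and 29.2, 70.4 and 25.3 CPM in CD8 T barcodes. At day 3, 3 counts stand for 31.6 CPM in Gzmc-high NK. Of all Ly49 UMIs in barcodes of at least 1500 UMIs, 73.2%, 77.8% and 69.2% by day were in the 2 NK gates and 5.63%, 3.84% and 5.58% in the CD8 T gate, so the gates hold most but not all of them.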
